A study of Mus musculus with 3 samples.

Results

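miR-202 is a microRNA of the gonads, and both arms of its hairpin, miR-202-5p and miR-202-3p, were measured in cultured ovaries of newborn CD1 mice. The members were the rows of the miRNA count table whose mature name was mmu-miR-202-5p or mmu-miR-202-3p, so 2 of the 627 mature miRNAs were described. Each name filled a single row, and both passed the minimum of 10 in the mean normalized count that 587 miRNAs passed. The ovaries had been kept in vitro for 72 h with the plasticizer DEHP, di (2-ethylhexyl) phthalate, at 0, 10 or 100 μM, and the 0 μM ovaries received the vehicle DMSO. Ovaries of many pups were pooled into 1 small RNA library per concentration. No genotype other than the outbred CD1 strain is given. There were no replicates, so the differences have no replicate check and carry no p-value, and the intervals given (95%) cover counting error only. As the reads carried no molecular identifiers, they are not counts of independent molecules. In such bulk RNA, fewer cells of a type and less of a miRNA per cell cannot be told apart.

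A miRNA hairpin is cut by Dicer into a duplex, and Argonaute keeps either the strand of the 5′ side (5p) or that of the 3′ side (3p). The kept strand pairs with target mRNAs mainly through its seed, bases 2 to 8, so both arms of a hairpin have different targets. miR-202 is found mostly in testis and ovary, and in the fetal mouse testis its gene is a target of SOX9, the factor of Sertoli cell differentiation. The let-7 family, which the 3p arm resembles in its seed, represses Lin28 and Hmga2 and is known for promoting differentiation.

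The mature sequences are shown to compare the seeds of both arms, with the seed in capitals. They are the RefSeq entries for GRCm38.p6, which held 529 of the 627 miRNAs by name.
miR-202-5p: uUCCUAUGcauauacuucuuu
miR-202-3p: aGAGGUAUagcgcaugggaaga
let-7j: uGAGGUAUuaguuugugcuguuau
let-7a-5p: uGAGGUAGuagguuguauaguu
The seed of miR-202-5p, UCCUAUG, was found in 0 of the other mature mouse miRNAs among 1679 in the reference, and its bases 2 to 7 were shared with 0 others as well. The seed of miR-202-3p, GAGGUAU, was shared with 1 miRNA, let-7j. Its bases 2 to 7, GAGGUA, were shared with 12, of which 11 were in the table, all of them let-7 family members or miR-98-5p. Beyond the seed the likeness ended, since miR-202-3p matched let-7j at 1 of the next 14 positions and let-7a-5p at 2 of 14. The arms also differed in base composition, with 6 G or C bases of 21 in miR-202-5p and 11 of 22 in miR-202-3p.

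The hairpin is printed with both mature arms in capitals, to show that they lie opposite each other in a single stem.
Mir202: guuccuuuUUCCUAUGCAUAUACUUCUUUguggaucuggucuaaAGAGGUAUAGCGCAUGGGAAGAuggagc
RefSeq places it at chr7:139957689-139957760 of GRCm38.p6, on the minus strand, with miR-202-5p at chr7:139957732-139957752 and miR-202-3p at chr7:139957695-139957716. RNAfold gave a minimum free energy of -35.5 kcal/mol for its 72 bases, with 19 of the 21 bases of the 5p arm and 20 of the 22 bases of the 3p arm paired. In GENCODE M21 the hairpin lies inside an exon (139957005 to 139957830) of the long non-coding RNA gene Gm2044 on the same strand. The plus-strand non-coding gene Gm16201 spans the site without an exon there. The Mir7686 hairpin lies 66 bases from Mir202 in the same Gm2044 exon, and the nearest protein-coding gene was Utf1, a transcription factor gene of pluripotent cells, at 12576 bases.

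To see how much of the ovarian miRNA pool miR-202 makes up, its counts were first set beside those of all miRNAs of the same library. With 1 row kept per miRNA, the libraries held between 5064602 and 5952274 counts. miR-202-5p had 41367 counts at 0 μM, 53172 at 10 μM and 9799 at 100 μM DEHP. In the 0 μM library this was a share of 0.787% (Wilson 95% interval 0.780% to 0.795%), in the 10 μM library one of 1.05% (1.04% to 1.06%) and in the 100 μM library one of 0.165% (0.161% to 0.168%). Its share was highest at 10 μM and lowest at 100 μM, and the intervals did not overlap. By counts it ranked 32 of 627 at 0 μM, 25 at 10 μM and 55 at 100 μM. At 0 μM its neighbours in rank were miR-30c-5p (47517 counts) and miR-881-3p (47423), an X-linked miRNA of germ cells, above it, and miR-322-3p (40803) and miR-30e-5p (37713) below it. These neighbours parted at 100 μM, where miR-881-3p had 170434 counts and miR-30e-5p 1468.

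miR-202-3p was far less abundant, with 1614 counts at 0 μM, 1261 at 10 μM and 1098 at 100 μM DEHP. Its share of the library was 0.0307% (0.0293% to 0.0323%), 0.0249% (0.0236% to 0.0263%) and 0.0184% (0.0174% to 0.0196%). The share was thus lower at each higher concentration, and the intervals did not overlap. The rank nevertheless moved from 172 at 0 μM, shared with miR-450b-5p, to 180 at 10 μM and up to 140 at 100 μM. At 100 μM the 10 most abundant miRNAs held 70.5% of the library, against 45.4% at 0 μM and 45.6% at 10 μM, and the median count per miRNA was 97 there against 232 at 0 μM and 227 at 10 μM. A share and a rank therefore went in opposite directions, and the scaling of the libraries decides the direction of this arm at 100 μM.

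Counts were compared between libraries after division by the size factors of DESeq2 (median of ratios), which were 1.38, 1.35 and 0.546 at 0, 10 and 100 μM. For miR-202-5p the normalized count in the vehicle library was 30017 (exact Poisson 95% interval 29728 to 30307). With 10 μM DEHP it was 39447 (39112 to 39783), and with 100 μM it was 17952 (17599 to 18311). That of miR-202-3p was 1171 (1115 to 1230), 935 (885 to 989) and 2012 (1894 to 2134). With these factors the arms of the same hairpin lay on opposite sides of their 0 μM levels at both concentrations, although at 100 μM total-count scaling put both below. The 5p arm was higher at 10 μM and lower at 100 μM than at 0 μM, and the 3p arm was lower at 10 μM and, except with total counts, higher at 100 μM. The plot of levels shows the lines of the arms approaching each other at 100 μM.

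**Figure D1:**
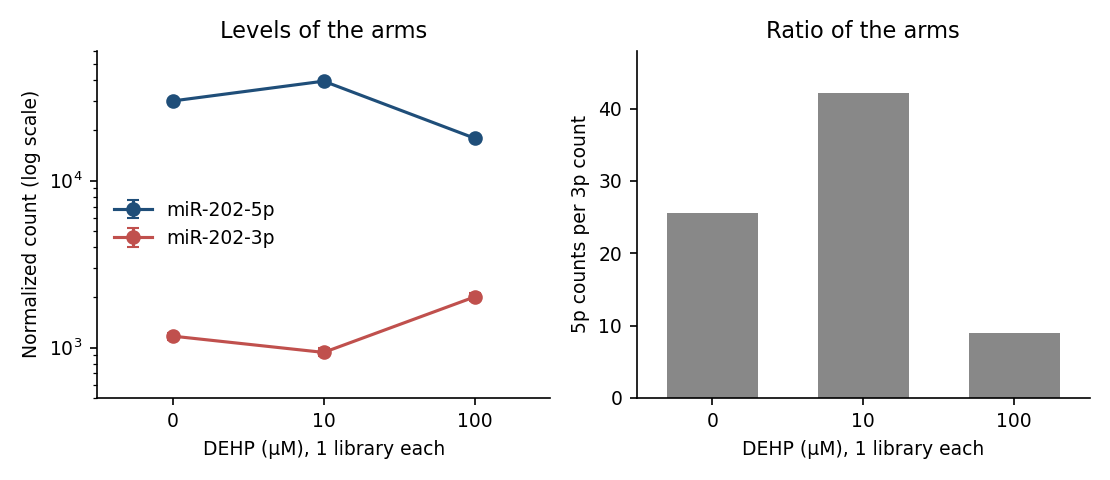
Normalized counts of miR-202-5p and miR-202-3p on a log axis (left, bars are exact Poisson 95% intervals, mostly within the points) and the ratio of their raw counts (right) at 0, 10 and 100 μM DEHP, with 1 library each. With 25.6, 42.2 and 8.92 counts of the 5p arm per count of the 3p arm, the ratio is highest at 10 μM.

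The first comparison sets the library of the lower concentration against that of the vehicle. For each log2 ratio, 0.5 was first added to both normalized counts, and its interval comes from the exact Clopper-Pearson limits for the share of one count in the sum of the pair. miR-202-5p had a log2 ratio of 0.39 between 10 and 0 μM (0.38 to 0.41), a level of 131% of that at 0 μM, and 15.5% of the 587 miRNAs had a higher ratio. miR-202-3p had a log2 ratio of -0.32 (-0.43 to -0.22), a level of 79.9%, and 27.8% of the miRNAs had a lower one. Both intervals excluded 0, so the libraries differed beyond counting error for each arm. The study's fold threshold of 2 on the log2 scale was passed by 0 of the 2 arms at 10 μM, and by 0.681% of all 587 miRNAs. At a threshold of 1 it was again 0 of 2, against 6.64% of all.

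The second comparison sets the higher concentration against the vehicle. Between 100 and 0 μM miR-202-5p had a log2 ratio of -0.74 (-0.77 to -0.71), a level of 59.8%, and 29.8% of the miRNAs had a lower ratio. miR-202-3p had a log2 ratio of 0.78 (0.67 to 0.89), a level of 172%, and 30.5% had a higher one. Beyond 2 there were again 0 of the 2 arms, against 19.8% of all miRNAs, and beyond 1 there were 0 of 2 against 52.5%. Both arms were therefore nearer to 0 than most miRNAs of this comparison. With total-count scaling the median of all miRNAs moved by -1.50, and the log2 ratio became -2.26 for miR-202-5p, beyond 2, and -0.74 for miR-202-3p, in the opposite direction to its ratio with the size factors. Relative to that median the arms stood at -0.75 and 0.77, against -0.73 and 0.79 with the size factors. The plot of scalings shows the 5p arm below and the 3p arm above the median of all miRNAs in each of the 5 settings. A scaling shifts all log2 ratios of a comparison by nearly the same amount. This order was therefore fixed in advance, and the 5 settings are no check of it.

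**Figure D2:**
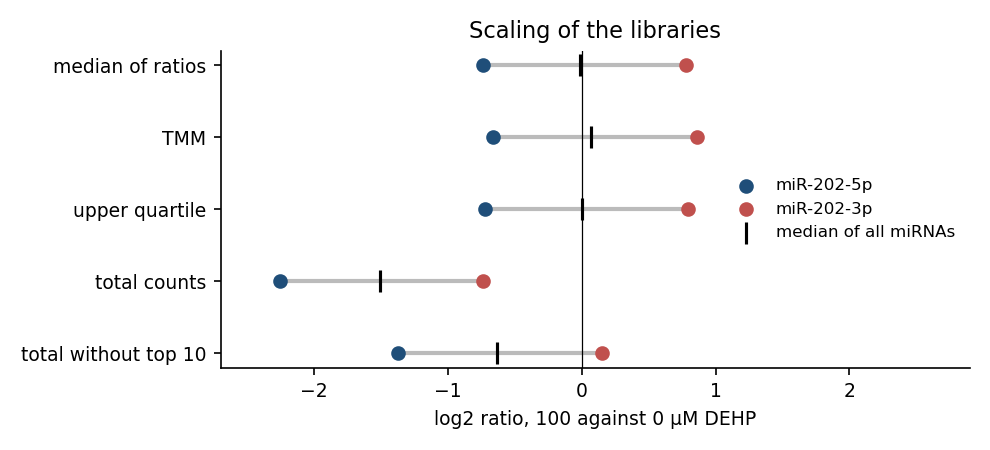
Log2 ratio between 100 and 0 μM DEHP of miR-202-5p, miR-202-3p and the median of all miRNAs that passed the minimum, under 5 scalings of the libraries. The ratio of miR-202-3p went from 0.86 with TMM to -0.74 with total counts, and that of miR-202-5p from -0.66 to -2.26. The distance between the arms stayed at 1.52, as it must when a scaling shifts all miRNAs together.

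Between 100 and 10 μM the distance was larger still, as the arms had started from opposite sides of their levels at 0 μM. Beyond 2 there were 0 of the 2 arms, against 21.0% of all miRNAs. miR-202-5p had a log2 ratio of -1.14 (-1.17 to -1.10), where 24.7% of all miRNAs were below -1. miR-202-3p had one of 1.10 (0.99 to 1.22), where 29.5% of all were above 1. Total-count scaling again turned the direction of the 3p arm, to -0.43. This comparison shares the 100 μM library with the one before and the 10 μM library with the first, so it adds no independent measurement. Because the 5p arm made up most of the counts of the hairpin, the sum of both arms followed it, with log2 ratios of 0.37 between 10 and 0 μM and -0.64 between 100 and 0 μM.

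**Figure D3:**
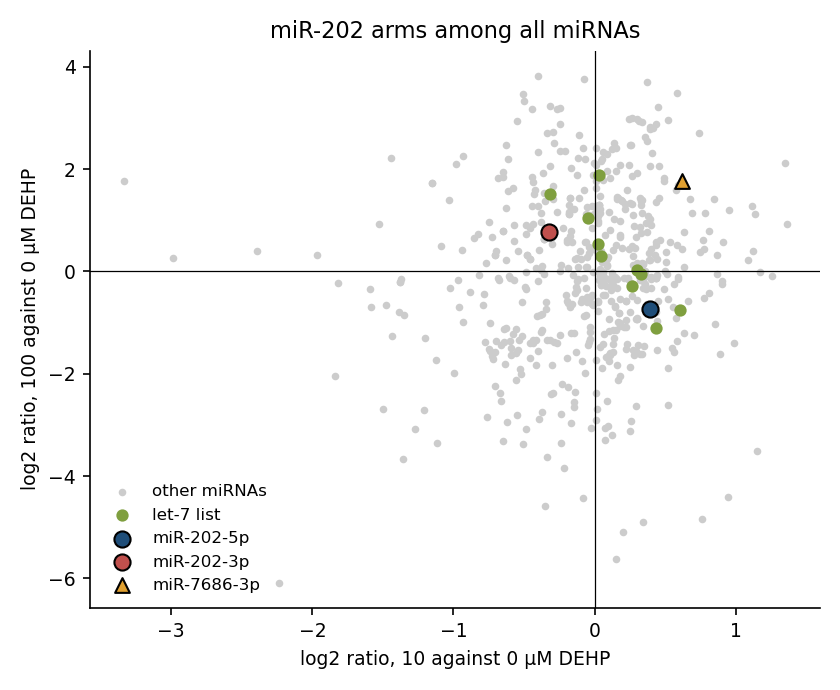
Log2 ratio of each of the 587 miRNAs between 10 and 0 μM DEHP (x axis) and between 100 and 0 μM (y axis), which share the 0 μM library, with the arms of miR-202, the let-7 list and miR-7686-3p marked. miR-202-5p (0.39, -0.74) and miR-202-3p (-0.32, 0.78) lie in opposite quadrants, both inside the cloud of the other miRNAs, while with total counts both arms would lie below 0 on the y axis.

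The ratio of the arms needs no scaling between libraries, since both arms were counted in the same library. With the vehicle, 96.2% of the counts of the hairpin were miR-202-5p (exact Clopper-Pearson 95% interval 96.1% to 96.4%). With 10 μM DEHP 97.7% were (97.6% to 97.8%), and with 100 μM 89.9% were (89.3% to 90.5%). The 3p arm accordingly made up 3.76%, 2.32% and 10.1% of the hairpin's counts. There were 25.6 counts of the 5p arm for each count of the 3p arm at 0 μM, 42.2 at 10 μM and 8.92 at 100 μM. The 5p arm stayed the major one in each library, and the order of the libraries was the same as for the level of miR-202-5p.

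From 0 to 10 μM, log2(5p/3p) of miR-202 changed by 0.72 (0.61 to 0.83, from the counting error of the 4 counts). From 0 to 100 μM it changed by -1.52 (-1.64 to -1.41), which is a 2.87-fold smaller ratio, and from 10 to 100 μM by -2.24 (-2.36 to -2.12), a 4.72-fold smaller one. To place these values, the same quantity was computed for the 170 hairpins, Mir202 included, whose arms both passed the minimum. From 0 to 10 μM, 10.7% of the other 169 hairpins had a larger rise than Mir202, and 27.2% had a change farther from 0 in either direction. A change above 1 was found in 8.82% of the hairpins, and Mir202 was not among them. From 0 to 100 μM Mir202 was below -1 together with 38.2% of the hairpins, and 44.4% of the others had a change farther from 0. From 10 to 100 μM it was below -1 together with 40.6%, and 30.8% of the others were farther from 0. The shift of the arms of miR-202 at 100 μM was therefore of a size common among hairpins of these libraries.

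**Figure D4:**
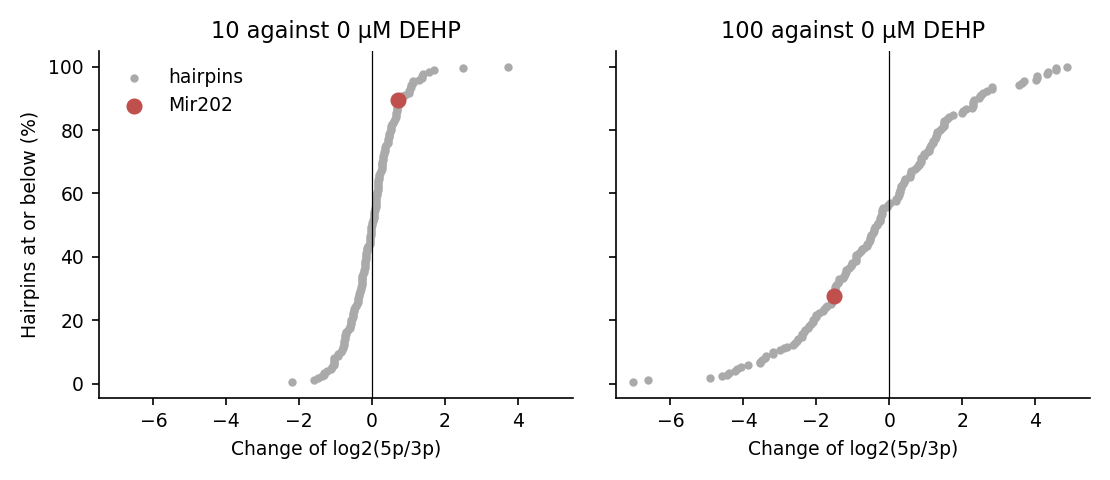
Change of log2(5p/3p) between libraries for 170 hairpins with both arms measured, drawn as the cumulative percentage of hairpins, with Mir202 marked. Mir202 stood at 0.72 between 10 and 0 μM, on the upper part of a narrow curve, and at -1.52 between 100 and 0 μM, on the lower part of a wide curve that ran from -7.04 to 4.87.

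With the size factors, opposite directions of the arms were also frequent elsewhere. Between 100 and 0 μM, the 5p arm had a log2 ratio below 0 and the 3p arm one above 0 in 51 of the 170 hairpins, Mir202 included, and the reverse held in 36. At 10 μM the pattern of Mir202 there, a higher 5p and a lower 3p arm, was found in 37. A rise of log2(5p/3p) at 10 μM with a fall at 100 μM was found in 48. The major arm switched between 0 and 100 μM in 22 hairpins, and Mir202 was not one of them. Over all miRNAs, the median log2 ratio between 100 and 0 μM was -0.17 for 270 5p arms and 0.25 for 274 3p arms.

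GC content moved with these ratios to some degree. Between 100 and 0 μM the median log2 ratio was -0.56 for the 100 miRNAs with a GC content of at most 40%, the class of miR-202-5p, and 0.32 for the 217 with at least 50%, the class of miR-202-3p. Spearman's rho of GC content with the ratio was 0.17 across 497 miRNAs with a sequence (84.7% of those that passed the minimum), which share the libraries and are not replicates. In the 30 hairpins whose 3p arm had a GC content at least 10 percentage points above that of the 5p arm, as in Mir202, the median change of log2(5p/3p) was -0.93, against -0.24 in the other 140. At 10 μM these medians were -0.018 and 0.0033. Over all 170 hairpins, Spearman's rho of the 5p minus 3p GC content with the change of log2(5p/3p) was 0.13 between 100 and 0 μM. Between 10 and 0 μM it was 0.023. By first base, the median log2 ratio between 100 and 0 μM was -0.03 with U, as in miR-202-5p, and -0.17 with A, as in miR-202-3p. It was 0.57 with C and -0.22 with G. By first base the class of miR-202-3p thus had a lower median than that of miR-202-5p, unlike by GC content. The part of base composition in the arm shift of miR-202 was not tested.

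miR-7686-3p comes from the hairpin next to Mir202 and was added after its values were seen. Whether the hairpins share a transcript in these ovaries was not tested. The sequence of miR-7686-3p is printed because it is encoded in the same Gm2044 exon.
miR-7686-3p: cUGCUCGGggcacuguaagaga
It had 47 counts at 0 μM, 71 at 10 μM and 64 at 100 μM, or 34.1, 52.7 and 117 normalized counts. Its log2 ratio was 0.62 between 10 and 0 μM (0.08 to 1.19) and 1.77 between 100 and 0 μM (1.22 to 2.36). It had the direction of miR-202-5p at 10 μM and that of miR-202-3p at 100 μM, and with total counts its ratio at 100 μM was 0.26. At these counts the intervals were wide, and its 5p arm was not analysed here.

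The let-7 list, 9 let-7 members and miR-98-5p, holds the miRNAs that share bases 2 to 7 with miR-202-3p, apart from the scarce let-7k (16, 13 and 1 counts). All 10 passed the minimum. At 10 μM they had log2 ratios from -0.32 for let-7i-5p to 0.60 for let-7c-5p, with a median of 0.15 against 0.02 for all miRNAs, and 8 were above 0, where 52.3% of all miRNAs were. miR-202-3p, at -0.32, was below each of them there, although its interval included the value of let-7i-5p. At 100 μM the list went from -1.10 for let-7b-5p to 1.89 for let-7f-5p, with a median of 0.17 against -0.01 for all. There, 6 were above 0 (49.6% of all), 3 above 1 (26.7% of all), 1 below -1 (25.7% of all) and 0 beyond 2. With total counts the median was -1.35, and 1 of the 10, let-7f-5p, was above 0. The members differ by few bases, and how the counting shared reads among them is not given in the sources used here.

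let-7j, the one miRNA with the full seed of miR-202-3p, had 18553, 17592 and 15128 counts at 0, 10 and 100 μM. Its log2 ratio was -0.04 between 10 and 0 μM (-0.07 to -0.01) and 1.04 between 100 and 0 μM (1.01 to 1.07), which became -0.47 with total counts. The intervals of let-7j and miR-202-3p did not overlap in either comparison, with the 3p arm of miR-202 the lower in both. Both carriers of the GAGGUAU seed thus had higher normalized counts at 100 μM than at 0 μM, and total-count scaling turned the direction of both. Of the counts with this seed, miR-202-3p made up 8.003% in the vehicle library (Wilson interval 7.64% to 8.39%), 6.69% with 10 μM DEHP (6.34% to 7.05%) and 6.77% with 100 μM (6.39% to 7.16%). Of the 744970 counts with GAGGUA at bases 2 to 7 at 0 μM it made up 0.217%, and 0.166% at 10 μM and 0.167% at 100 μM. These shares need no scaling, and they were lower at both concentrations than at 0 μM beyond counting error. Those of the GAGGUAU seed depend on how reads were assigned to let-7j, which is not given.

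**Figure D5:**
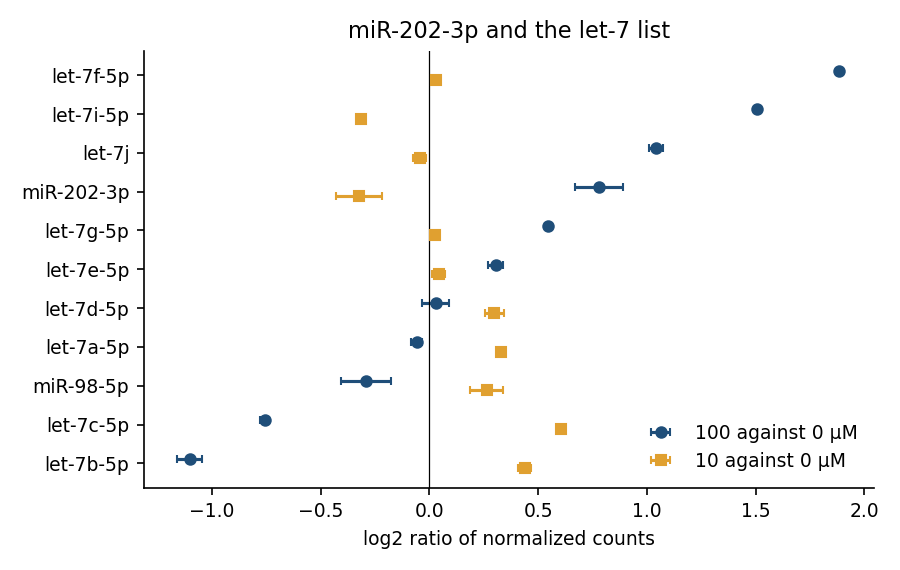
Log2 ratios (x axis) of miR-202-3p and the 10 miRNAs of the let-7 list between 100 and 0 μM (circles) and 10 and 0 μM DEHP (squares), with 95% counting intervals. At 100 μM miR-202-3p (0.78) lay between let-7g-5p (0.54) and let-7j (1.04), and at 10 μM it was the lowest of the 11, at -0.32.

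The seed pools were also set against the 5p arm, whose seed no relative shares. At 0 μM there were 0.488 counts with the GAGGUAU seed for each count of miR-202-5p, at 10 μM 0.355 and at 100 μM 1.66. For the pool with GAGGUA at bases 2 to 7 there were 18.0, 14.3 and 67.2, so that pool was the larger in each library. By bases 2 to 8 the counts with GAGGUAU were thus the larger at 100 μM, and those of miR-202-5p at 0 and 10 μM. Most of the GAGGUAU counts were let-7j, as miR-202-3p made up 8.003%, 6.69% and 6.77% of them. Over their shared length let-7j differs from let-7i-5p only at base 8, which lies in the seed. let-7i-5p had 194533, 152923 and 219064 counts at 0, 10 and 100 μM. How reads were shared between them is not given, so how many let-7j counts carry GAGGUAU is not known.

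Among the 373 other miRNAs whose normalized counts averaged 100 or more, those most like each arm were taken by the Euclidean distance of their log2 ratios at 10 and 100 μM against 0 μM, over the 3 libraries. Nearest to miR-202-5p were miR-487b-3p (distance 0.0067), miR-191-5p (0.17), miR-186-5p (0.20), let-7c-5p (0.21) and miR-103-3p (0.21). miR-191-5p, for example, had 11900, 15880 and 3144 counts. Nearest to miR-202-3p were miR-3068-3p (0.043), miR-598-3p (0.096), miR-1a-3p (0.15), miR-350-3p (0.17) and miR-483-5p (0.18). miR-3068-3p had 1985, 1530 and 1315 counts.

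The tissue was checked by markers of its cell types. The X-linked germ-line list had 12 of 12 miRNAs in the table, the list of germ line and pluripotency 6 of 7 and the granulosa list 4 of 5, and 0 of these were at 0 counts in any library. Liver miR-122-5p had 22 counts or fewer in each library. The 5 blood miRNAs summed to 306, 247 and 176 normalized counts at 0, 10 and 100 μM. The members of most lists did not go one way between 100 and 0 μM. In the blood list the 4 that passed the minimum were all below 0 with the size factors (50.4% of all miRNAs). Their median was -0.96, at low counts of 54 or fewer in the 100 μM library. With the size factors, 8 of the 12 X-linked miRNAs had a log2 ratio below 0 (50.4% of all miRNAs), with a list median of -0.12, and 3, miR-871-3p, miR-881-3p and miR-470-5p, had one above 2 (10.4% of all). Of the 8, miR-465a-3p, miR-465b-3p and miR-465c-3p had identical counts. The summed level of this list was 70993, 63760 and 383891 normalized counts at 0, 10 and 100 μM, of which miR-881-3p alone gave 34411, 25352 and 312245. Of the 6 miRNAs of germ line and pluripotency 2 were below 0 and 4 above, with miR-294-3p at 2.70, and the sum was 2614, 1901 and 5507. Both endothelial miR-126a arms had a log2 ratio below -2 (9.37% of all), and their sum was 46170, 52252 and 9855. In the granulosa list the log2 ratio of miR-503-5p stood at -1.82 and miR-322-5p at -0.28, miR-224-5p at 0.45 and miR-383-5p at 0.58, with a median of 0.08, and the sum was 11840, 10417 and 6949. In the stromal pair miR-143-3p, nearly the whole of a sum of 214447, 170354 and 793809, had a log2 ratio of 1.92 and miR-145a-5p one of -1.20. The 3 skeletal muscle miRNAs summed to 284, 214 and 480, mostly from miR-1a-3p with a log2 ratio of 0.84. That of miR-206-3p was -1.31, and miR-133a-3p did not pass the minimum. Of the 2 neuronal miRNAs listed, miR-124-3p was absent from the counts, and miR-9-5p was at 512, 497 and 660 normalized counts. The part of these lists in the values of miR-202 was not tested.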

How the data were processed

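Small RNA of ovaries cultured with 0, 10 or 100 μM DEHP was sequenced by the authors, 1 library per concentration. The authors trimmed linkers and low-quality sequence, used bowtie2 to compare what was left to the mouse reference, and took miRNA counts from miRDeep2. Versions are not given in the sources used here. The processing notes name mm10 and DESeq2. The deposited values are whole-number counts, not normalized, in 961 rows for 627 mature miRNAs, of which the row with the highest total was kept for each. Each column was matched to its sample by title. With 1 row kept per miRNA the totals were 5064602 to 5952274 counts. Over all 961 rows they were 6916300, 6950297 and 6850706 at 0, 10 and 100 μM.

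Size factors came from DESeq2 1.42.0, TMM and upper-quartile factors from edgeR 4.0.16 in R 4.3.3, and the rest from Python 3.11.15 with scipy 1.17.1. The hairpin was folded with ViennaRNA 2.7.2. With 1 library per concentration no test was made. Comparisons used the miRNAs whose normalized counts averaged 10 or more. Arms were paired by RefSeq hairpin. The scripts were tested on simulated counts. Named miRNAs were both arms, the let-7 list, the neighbours in rank, the nearest patterns, the most shifted hairpins, seed relatives and cell type markers. miR-7686-3p was added after its values were seen, as the neighbour in the genome. The members and lists were chosen with earlier results of these data known.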

Additional observations from a re-analysis of the deposited data

How the results depend on the processing

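No paired analysis was possible because there was 1 library per concentration, and for the same reason no replicate could be left out. The restriction to hairpins whose arms each come from 1 locus was chosen after seeing the data. The arm ratio and the seed shares do not depend on scaling. With total counts the log2 ratio of miR-202-3p was -0.74 against 0 μM and -0.43 against 10 μM in the 100 μM library, both in the opposite direction, and that of miR-202-5p was 0.41 between 10 and 0 μM, -2.26 between 100 and 0 μM and -2.67 between 100 and 10 μM. Without the 10 most abundant miRNAs in the totals, miR-202-3p was at 0.15 and 0.45 in the comparisons with the 100 μM library, and miR-202-5p at 0.42, -1.37 and -1.79. miR-202-5p was at 0.43, -0.66 and -1.09 with TMM, and at 0.45 between 10 and 0 μM and -1.18 between 100 and 10 μM with the upper quartile. Each scaling shifts all miRNAs together, and between 100 and 0 μM this shift of the median was -1.50 with total counts, -0.62 without the 10 most abundant and 0.08 with TMM.

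For the let-7 list, total counts gave a median of -1.35 (100 against 0 μM) and of -1.54 (100 against 10 μM), leaving out the 10 most abundant gave -0.46 and -0.66, and TMM gave 0.043 for the latter. Beyond 2 with total counts were 2 of the 10 in the list between 100 and 0 μM, where 212 of all miRNAs were. Between 100 and 10 μM they were 3, where 229 of all were. Without the 10 most abundant, 2 of the list were beyond 2 between 100 and 10 μM, where 131 of all were. With the size factors, 587 miRNAs passed the minimum. At a threshold of 1, 4 and 5 of the list were beyond it, against 308 and 318 of these 587. Of all miRNAs, 212 (4 higher, 208 lower) between 100 and 0 μM and 229 (8 higher, 221 lower) between 100 and 10 μM were beyond 2 with total counts, against 116 and 123 with the size factors. Without the 10 most abundant, 28 were higher and 110 lower between 100 and 0 μM. With a mean of at least 100 they were 75 and 81, and 1 between 10 and 0 μM, where no minimum gave 9. At a threshold of 1 they were 39 between 10 and 0 μM, 308 and 318. With the rows of a miRNA summed, which raises the totals, the share of miR-202-5p was 0.598%, 0.765% and 0.143% and that of miR-202-3p 0.0233%, 0.0181% and 0.0160% at 0, 10 and 100 μM. The share of other hairpins whose arm ratio changed by more than that of Mir202 was 28.4%, 48.9% and 36.4% (10 against 0, 100 against 0, 100 against 10 μM) with 100 or more normalized counts in each arm, and 25.9%, 43.2% and 29.5% with hairpins of 1 locus, all within the binomial interval of the share over all hairpins. These and the remaining values, 86 in all, stayed within their counting or binomial interval, within 0.1 for a list median, or within 1.5 times for a count. Depth limits the low counts of miR-7686-3p and let-7k, not those of the arms of miR-202.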

Other observations

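The hairpins whose arms shifted most between 0 and 100 μM DEHP, among those whose arms both averaged 100 or more normalized counts, give a scale for miR-202. The largest falls of log2(5p/3p) were those of Mir30e (-7.04, 95% counting interval -7.13 to -6.95), Mir708 (-6.61) and Mir28a (-4.58). The largest rises were those of Mir10b (4.87), Mir380 (4.59) and Mir200a (4.58). At 10 μM the same hairpins had changes of -1.49, 0.16 and 0.25, and of 0.19, 0.19 and 0.04. Thus 5 of these 6 had a smaller shift at 10 μM than Mir202, at 0.72. Of all 88 other hairpins at this minimum, only 28.4% had a change farther from 0 there, so a smaller shift was common.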
